A study of Mus musculus with 6 samples.

Results

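The 9 genes described here encode the machinery that docks and fuses zymogen granules in the acinar cell of the pancreas: the granule GTPases Rab3d, Rab27b and Rab26, the granule SNARE proteins Vamp2 and Vamp8, the target-membrane SNARE proteins Stx3 and Snap23, the syntaxin-binding protein Stxbp2 and the calcium sensor Syt1. They were chosen by name as a functional family, and all 9 were found among the 23099 gene symbols of the deposited files, each on 1 row. RNA of whole pancreas was sequenced from 8-week-old mice in 3 libraries of Ela1-Myc mice and 3 libraries of wild-type (WT) mice. Ela1-Myc denotes a Myc transgene under the elastase 1 promoter, which is active in acinar cells, and WT mice lack it. The comparison asks how the mature pancreas differs when Myc, a transcription factor of growth and division, stays on in its enzyme-secreting cells.

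Acinar cells store digestive enzymes as inactive precursors in zymogen granules at their apical pole and release them when a secretagogue raises cytosolic calcium. Rab GTPases mark the granule and tether it near the membrane. Fusion itself is driven by SNARE proteins, a VAMP on the granule that zips up with a syntaxin and a SNAP protein on the target membrane, with a Munc18 protein of the Stxbp family guiding the syntaxin. In rodent acinar cells granules carry both Vamp2 and Vamp8, and Stx3 and Snap23 are found on granule or plasma membranes.

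Values are the authors' adjusted FPKM, a fragment count scaled to transcript length and library, divided by 100000 and called the level below, so levels of different genes are per length. Per the labels' protocols, ERCC spike-in RNA of known amount was added to equal masses of total RNA; the sources used here do not say whether the adjustment used it or how it was made, and read depth is unknown. Among 8802 tested genes, 0 to 29 were listed at 0 in the Ela1-Myc libraries and 592 to 1426 in the WT libraries (a listed 0 is given as such, with no mean). Most genes lay higher in Ela1-Myc as deposited, with a median log2 change of 1.22 over the tested genes. A second scale, on which each library was divided by its median ratio to the geometric mean over the 11198 genes above 0 in all 6 libraries, brought that median to 0.22, and the changes of the fitted genes are given on both. The RNA integrity number was 8.8, 7.2 and 8.3 in Ela1-Myc replicates 1 to 3 and 7.3, 7.3 and 7.1 in WT replicates 1 to 3, below the minimum stated in the labels' protocols for 5 of the 6; its part in the results was not tested. Whether the 3 libraries of a genotype stem from different mice is not stated in the labels, and p-values therefore cover only the variation among these libraries.

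As deposited, Vamp2, Stx3, Stxbp2 and Snap23 rose and Rab3d, Rab26 and Vamp8 were not called; after median-of-ratios scaling Rab3d and Rab26 fell and none of the others was called. In whole tissue, fewer cells of a type and less RNA per cell cannot be told apart. Inside each library, where the scale between libraries drops out, the Rab genes were lower against the fusion genes in all Ela1-Myc libraries than in any WT library for 14 of 15 gene pairs. They were also lower against most other genes: Rab3d against 81%, Rab26 against 93.8% and Rab27b against 62.2% of the other tested genes above 0 in all 6 libraries, so the count is not particular to the fusion genes. Of the 9 genes, 7 passed the filter of a mean level of at least 1 over the 6 libraries; Rab27b, at a mean of 0.982, and Syt1, at 0.0411, did not. On the deposited scale 4 of the 7 were called higher, against 70.2% of all tested genes, and 0 were called lower, against 0.239% (limma, Benjamini-Hochberg adjusted p of at most 0.05 over all tested genes; 0 of the 7 were also lower at an unadjusted p under 0.05). On the median-of-ratios scale 0 were called higher, against 17.1% of tested genes, and 2 were called lower, against 7.1% (limma; 0 higher at an unadjusted p under 0.05). The median log2 change of the 7 was 0.79 as deposited and -0.18 after scaling, below the 1.22 and 0.22 of all tested genes on the same scales.

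**Figure D1:**
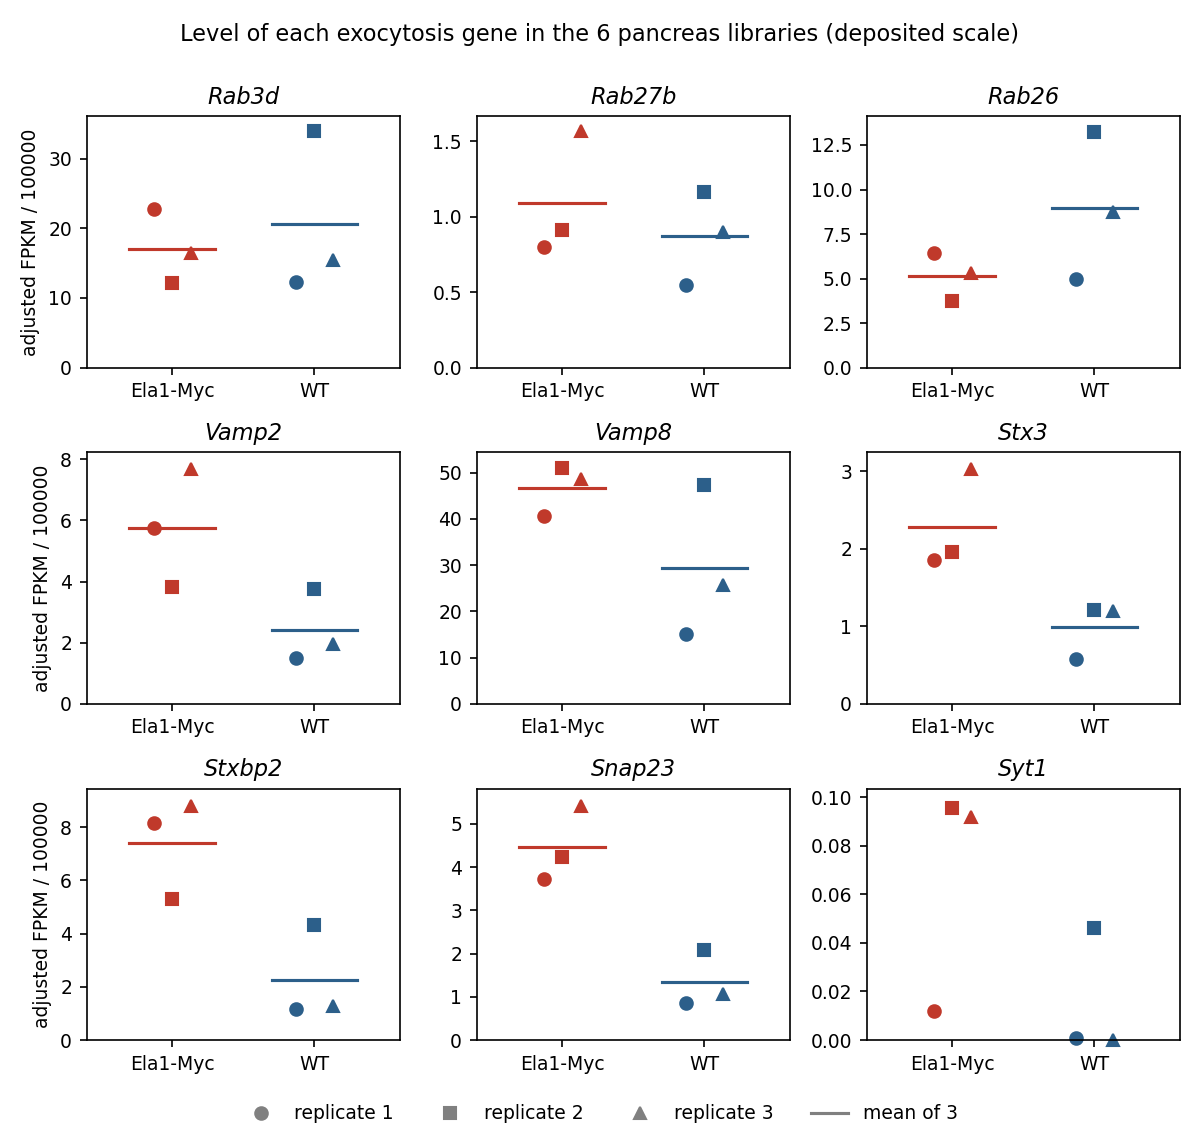
Level of each of the 9 genes (adjusted FPKM divided by 100000, linear axes from 0) in the 3 Ela1-Myc libraries (red) and the 3 WT libraries (blue); symbols mark the replicate and bars the mean of 3, left out for Syt1, which is listed at 0 in 1 library. The groups do not overlap for Vamp2, Stx3, Stxbp2 and Snap23, while Rab3d, Rab27b, Rab26 and Vamp8 overlap.

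Rab3d (chromosome 9, 21907511 to 21918121, minus strand, GRCm38), the main Rab3 protein of the zymogen granule, stood at 22.7, 12.1 and 16.4 in Ela1-Myc replicates 1 to 3, against 12.2, 33.9 and 15.5 in WT replicates 1 to 3. The groups overlapped as deposited, with WT replicate 2 the highest of all 6 libraries. The log2 change was -0.17 ± 0.616 (SE; limma adjusted p = 0.809). After scaling the levels were 13.8, 7.70 and 7.66 in Ela1-Myc, against 29.5, 38.0 and 25.4 in WT, and every Ela1-Myc library lay below every WT library. Rab3d fell by 1.61 ± 0.354 log2 units on that scale (SE; limma adjusted p = 0.0214). The call was lost without Ela1-Myc replicate 2 or 3 (limma adjusted p = 0.0947 and 0.0858).

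Rab26 (chromosome 17, 24529054 to 24533747, minus strand), a Rab of maturing secretory granules, stood at 6.42, 3.72 and 5.32 in Ela1-Myc, against 4.96, 13.2 and 8.75 in WT. As deposited the groups overlapped through WT replicate 1 alone, and the log2 change of -0.63 ± 0.467 was not called (SE; limma adjusted p = 0.225). After scaling the levels were 3.90, 2.37 and 2.48 in Ela1-Myc, against 11.96, 14.8 and 14.4 in WT. The lowest WT library was thus well above the highest Ela1-Myc library, and Rab26 fell by 1.92 ± 0.258 log2 units (SE; limma adjusted p = 0.00398). It was called lower on this scale without any single library, with limma adjusted p between 0.0054 and 0.0308.

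Rab27b (chromosome 18, 69979131 to 70141590, minus strand), a Rab that tethers granules near the apical membrane, was expressed at a low level of 0.801, 0.911 and 1.57 in Ela1-Myc, against 0.551, 1.17 and 0.897 in WT. The groups overlapped as deposited. After scaling the levels were 0.487, 0.580 and 0.732 in Ela1-Myc, against 1.33, 1.31 and 1.47 in WT, and the groups no longer overlapped. Fitted among all symbols with no filter, its log2 change was 0.16 as deposited (limma adjusted p = 0.577) and -0.57 after scaling (limma adjusted p = 0.0661). It was called lower after scaling when the genes above 0 in all 6 libraries were tested instead (limma adjusted p = 0.04). The annotation places a processed pseudogene, AC163398.1, on the opposite strand within the locus, and although the library kit keeps strand, the sources used here do not say whether counting used it.

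Vamp8 (chromosome 6, 72385221 to 72390667, minus strand), the granule SNARE on which much of regulated enzyme release depends in mice, had the highest level of the family in all 6 libraries. It stood at 40.6, 51.0 and 48.7 in Ela1-Myc, against 15.1, 47.4 and 25.7 in WT. Only WT replicate 2 reached the Ela1-Myc range. The log2 change was 0.79 ± 0.695 as deposited and -0.70 ± 0.341 after scaling, where all Ela1-Myc libraries lay below all WT libraries; neither was called (SE; limma adjusted p = 0.307 and 0.17). Without WT replicate 2 it was called higher on the deposited scale, with 5 of the 7 tested genes then higher, beside 81.1% of all tested genes.

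Vamp2 (chromosome 11, 69088528 to 69092381, plus strand), the other granule VAMP and better known from synaptic vesicles, stood at 5.76, 3.82 and 7.68 in Ela1-Myc, against 1.51, 3.77 and 1.96 in WT. Ela1-Myc replicate 2 and WT replicate 2 almost met. Vamp2 rose by 1.00 ± 0.388 log2 units as deposited (SE; limma adjusted p = 0.0333) and had a log2 change of -0.18 ± 0.214 after scaling (SE; limma adjusted p = 0.555). The deposited-scale call was lost without Ela1-Myc replicate 1 or 3 or WT replicate 1 or 3 (limma adjusted p from 0.0851 to 0.173).

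Stx3 (chromosome 19, 11775118 to 11819403, minus strand), the syntaxin of granule membranes and of apical surfaces, stood at 1.86, 1.96 and 3.02 in Ela1-Myc, against 0.575, 1.21 and 1.19 in WT. All 3 Ela1-Myc libraries were above all 3 WT libraries as deposited. Stx3 rose by 0.72 ± 0.281 log2 units (SE; limma adjusted p = 0.0336), a change that was -0.18 ± 0.167 after scaling (SE; limma adjusted p = 0.456). The deposited-scale call held without Ela1-Myc replicate 1 or WT replicate 2 and was lost without each of the other 4 libraries (limma adjusted p from 0.0528 to 0.149).

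Stxbp2 (chromosome 8, 3631160 to 3643644, plus strand), also named Munc18-2, binds Stx3 and prepares it for fusion. Its level was 8.14, 5.31 and 8.79 in Ela1-Myc, against 1.15, 4.31 and 1.27 in WT. Every Ela1-Myc library was above every WT library, with WT replicate 2 well above the other 2 WT libraries. Stxbp2 rose by 1.48 ± 0.424 log2 units as deposited (SE; limma adjusted p = 0.00722), the largest change among the 7 tested genes on that scale. After scaling the log2 change was 0.32 ± 0.289 (SE; limma adjusted p = 0.43). The deposited-scale call was lost without Ela1-Myc replicate 3 (limma adjusted p = 0.0503).

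Snap23 (chromosome 2, 120567671 to 120600722, plus strand), the SNAP protein of non-neuronal cells, stood at 3.74, 4.23 and 5.42 in Ela1-Myc, against 0.851, 2.09 and 1.06 in WT. The groups did not overlap. Snap23 rose by 1.25 ± 0.325 log2 units as deposited (SE; limma adjusted p = 0.00417), and it was called higher without any single library (limma adjusted p from 0.00128 to 0.0361). After scaling the log2 change was 0.20 ± 0.173 (SE; limma adjusted p = 0.408). Of the 7 tested genes, 4 had no Ela1-Myc library at or below a WT library as deposited, against 75.3% of all tested genes, and 0 had the reverse, against 0.534%. After scaling 0 of the 7 were separated upwards in Ela1-Myc, against 28.9% of tested genes, and 3 downwards, namely Rab3d, Rab26 and Vamp8, against 17.2%.

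Syt1 (chromosome 10, 108497650 to 109010975, minus strand), the calcium sensor of synaptic vesicles, was close to undetected. It stood at 0.012, 0.0957 and 0.0917 in Ela1-Myc, against 0.00102 and 0.046 in WT replicates 1 and 2, and it was listed at 0 in WT replicate 3. These levels are too low for a comparison, and other annotated genes overlap the locus, Gm5136 and Gm47477 on the same strand and Gm47472 on the opposite one. Syt7, a sensor of slower secretory granules, was at 0.317, 0.414 and 0.911 in Ela1-Myc, against 0.130 and 0.186 in WT replicates 2 and 3, and it was listed at 0 in WT replicate 1. Syt3 was at 0.776, 0.551 and 0.911 in Ela1-Myc, against 0.899, 2.19 and 2.08 in WT; it fell by 1.36 after scaling (limma adjusted p = 0.00368) and had a log2 change of -0.61 as deposited (limma adjusted p = 0.0597). Of these calcium sensors, Syt3 was thus the only one to pass the filter.

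**Figure D2:**
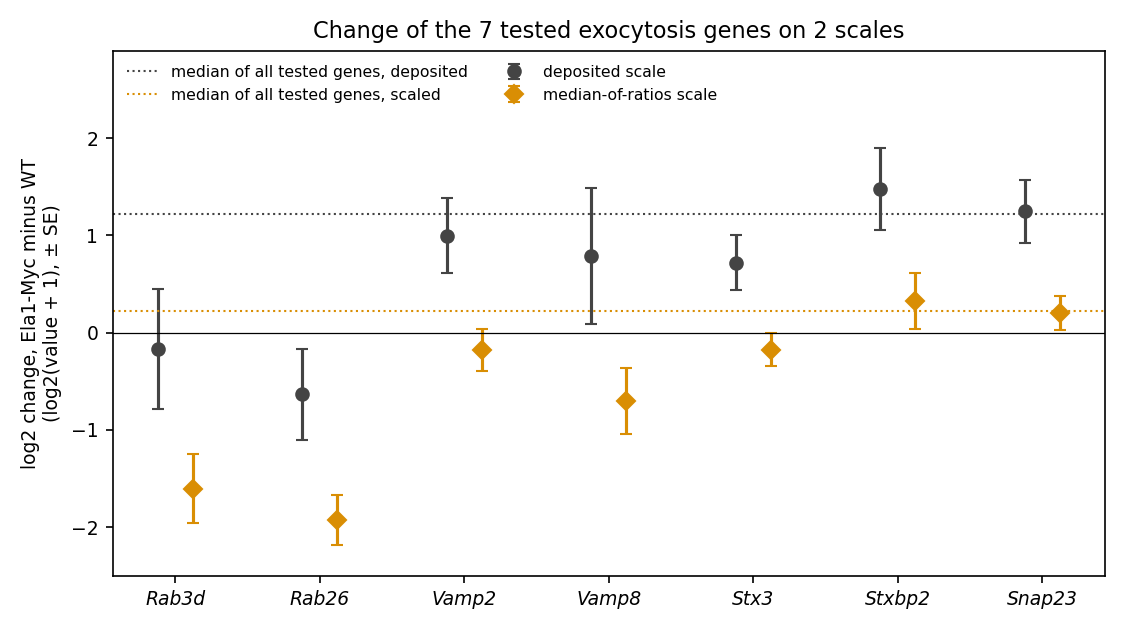
Log2 change (Ela1-Myc minus WT, on log2(value + 1), ± SE from limma) of the 7 tested genes on the deposited scale (grey circles) and after median-of-ratios scaling (orange diamonds); dotted lines give the median of all 8802 tested genes on each scale, 1.22 and 0.22. On both scales Rab3d and Rab26 have the lowest changes of the 7, and Stxbp2 and Snap23 the highest.

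Because a factor applied to a whole library cancels in a ratio of 2 of its genes, the balance within the family does not rest on the choice of scale, although an adjustment that varied with the level of a gene would not cancel. Relative to the geometric mean of the 8 genes above 0 in all 6 libraries, Rab26 lay at 0.11, -0.41 and -0.44 log2 units in Ela1-Myc, against 1.22, 1.23 and 1.47 in WT. Rab3d lay at 1.94, 1.29 and 1.18 in Ela1-Myc, against 2.52, 2.59 and 2.29 in WT. Both were lower in every Ela1-Myc library than in any WT library. Stxbp2 lay at 0.46, 0.10 and 0.28 in Ela1-Myc, against -0.89, -0.39 and -1.31 in WT, and Snap23 at -0.67, -0.22 and -0.41 in Ela1-Myc, against -1.33, -1.43 and -1.57 in WT. These 2 fusion genes, together with Vamp2, were higher in every Ela1-Myc library than in any WT library, while Rab27b, Vamp8 and Stx3 overlapped.

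The differences in these log2 ratios, Ela1-Myc minus WT, were -1.55 for Rab26, -0.996 for Rab3d, -0.49 for Rab27b, -0.01 for Vamp8, 0.42 for Stx3, 0.48 for Vamp2, 1.01 for Snap23 and 1.14 for Stxbp2. With 3 libraries against 3 the exact two-sided permutation test cannot give a p below 0.1, which the 5 genes without overlap reached (adjusted p = 0.16 over the 8 ratios). The same ratio was taken for the 6995 tested genes above 0 in all 6 libraries. It was lower in all Ela1-Myc libraries than in any WT library for 6.76% of them and for 2 of the 8 genes, and higher for 47.6% of them and 3 of the 8. Because the 8 genes make up the denominator, some of them must lie lower where others lie higher.

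**Figure D3:**
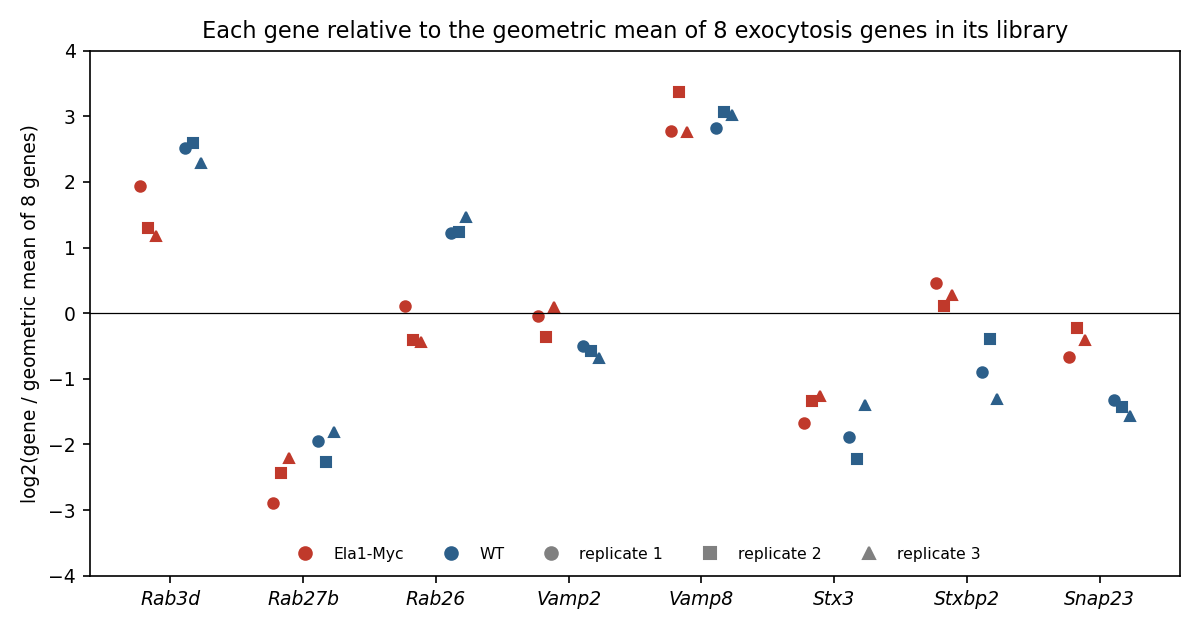
Log2 ratio of each gene to the geometric mean of the 8 genes above 0 in all 6 libraries, 1 point per library (red Ela1-Myc, blue WT, symbols the replicate). Rab3d and Rab26 are lower in all Ela1-Myc libraries, Vamp2, Stxbp2 and Snap23 higher, and Rab27b, Vamp8 and Stx3 overlap.

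The single ratios show how far the balance moved. Rab26 level over Stxbp2 level was 0.789, 0.702 and 0.605 in Ela1-Myc, against 4.32, 3.07 and 6.87 in WT, so that the order of these 2 genes was turned round in every library. Rab3d over Snap23 was 6.09, 2.86 and 3.03 in Ela1-Myc, against 14.4, 16.2 and 14.6 in WT, a difference of -2.004 in the mean log2 ratio. Rab3d over Vamp8, the 2 genes with the highest levels, was 0.561, 0.237 and 0.337 in Ela1-Myc, against 0.809, 0.716 and 0.602 in WT. Each of the 3 ratios was lower in all Ela1-Myc libraries than in any WT library (exact two-sided permutation p = 0.1, the smallest possible; adjusted p = 0.133 over the 28 pairs).

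Of the 15 ratios of a Rab gene over Vamp2, Vamp8, Stx3, Stxbp2 or Snap23, 14 were lower in all Ela1-Myc libraries, with differences in mean log2 ratio between -2.70 and -0.91, and the 15th, Rab27b over Vamp8, overlapped with a difference of -0.49. Rab3d and Rab26 were lower against 5 of the 5 fusion genes and Rab27b against 4 of the 5, beside the 81%, 93.8% and 62.2% of other tested genes given above. Among the 3 Rab genes themselves, Rab3d over Rab26 was 3.54, 3.25 and 3.08 in Ela1-Myc, against 2.47, 2.56 and 1.77 in WT. Rab27b over Rab26 was 0.125, 0.245 and 0.295 in Ela1-Myc, against 0.111, 0.0881 and 0.102 in WT. Rab26 was thus lower also against Rab3d and Rab27b. Rab3d over Rab27b overlapped, with a difference in mean log2 ratio of -0.50. Among the 10 pairs of fusion genes 5 separated and 5 overlapped. The share of pairs of other genes that separate was not computed, so whether this count is particular to the fusion genes is not known. The 5 that separated were lower in all Ela1-Myc libraries, with differences in mean log2 ratio of -1.15 for Vamp8 over Stxbp2, -1.02 for Vamp8 over Snap23, -0.67 for Vamp2 over Stxbp2, -0.59 for Stx3 over Snap23 and -0.53 for Vamp2 over Snap23. The first of these is larger in size than the -0.99 of Rab3d over Vamp8, so a difference of that size was not confined to pairs with a Rab gene. Vamp2 over Stx3 was 3.10, 1.95 and 2.54 in Ela1-Myc, against 2.63, 3.12 and 1.64 in WT, and Stxbp2 over Snap23 was 2.18, 1.25 and 1.62 in Ela1-Myc, against 1.35, 2.06 and 1.20 in WT. These 2 pairs overlapped, as did Vamp2 over Vamp8, Vamp8 over Stx3 and Stx3 over Stxbp2. The pairs share genes and are not independent of each other.

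**Figure D4:**
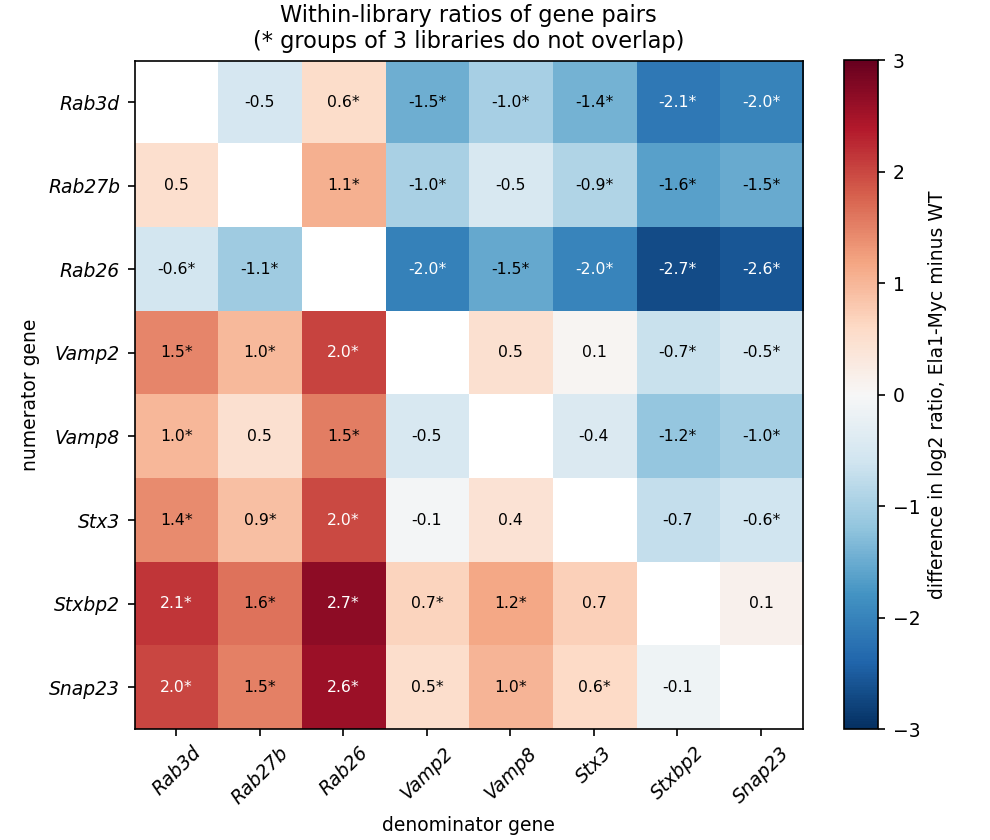
Difference in the mean log2 ratio of 2 genes of the same library (row gene over column gene), Ela1-Myc minus WT, for the 28 pairs of 8 genes, each shown in both directions; blue is lower and red is higher in Ela1-Myc, and an asterisk marks pairs whose 3 Ela1-Myc and 3 WT libraries do not overlap. In the rows of Rab3d, Rab27b and Rab26 the columns of Vamp2, Vamp8, Stx3, Stxbp2 and Snap23 are all blue, down to -2.70 for Rab26 over Stxbp2.

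The order of levels inside a library differed between the groups accordingly. In every WT library the order ran Vamp8, Rab3d and Rab26 from the top, then Vamp2 and Stxbp2, whose order differed between WT libraries, then Snap23 and Stx3, likewise without a fixed order, and then Rab27b and Syt1. In every Ela1-Myc library Vamp8 and Rab3d again came first, followed by Stxbp2; Vamp2, Rab26 and Snap23 had no fixed order among themselves, and Stx3, Rab27b and Syt1 followed. Among all 23099 symbols of its library, counted from the highest level, Rab3d ranked 1203, 2022 and 1596 in Ela1-Myc, against 507, 541 and 478 in WT. Rab26 ranked 3437, 5113 and 4563 in Ela1-Myc, against 1098, 1147 and 755 in WT. The lower place was not particular to these Rab genes. Vamp8 ranked 726, 575 and 584 in Ela1-Myc, against 421, 416 and 332 in WT. Stx3 ranked 7360, 7292 and 6949 in Ela1-Myc, against 5555, 5610 and 4135 in WT. Vamp2 and Rab27b were likewise placed lower in every Ela1-Myc library than in any WT library. Snap23 overlapped, at 5051, 4691 and 4483 in Ela1-Myc and 4485, 4281 and 4515 in WT. Stxbp2 overlapped as well, at 2858, 4044 and 2929 in Ela1-Myc and 3693, 2739 and 3918 in WT. Genes listed at 0 in WT libraries drop to the bottom there and raise the rank of the others, to an extent that was not tested. A percentile among only the genes above 0 in a library leaves them out. On it Snap23 stood at 70.3, 73.7 and 74.9 in Ela1-Myc, against 77.2, 79.5 and 75.5 in WT, lower in every Ela1-Myc library. Stxbp2 overlapped there too, at 83.2, 77.3 and 83.6 in Ela1-Myc, against 81.2, 86.9 and 78.7 in WT.

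Relative to the cargo of the granules, 7 of the 8 genes lay higher. The digestive enzymes and granule proteins of a list of 34, of which the files hold 33, made up 62.6% to 74.8% of the summed values in Ela1-Myc and 92.0% to 93.4% in WT. The log2 ratio of a gene to the summed cargo was higher in all Ela1-Myc libraries for 7 of the 8 genes, by 2.91 for Stxbp2, 2.77 for Snap23, 2.24 for Vamp2, 2.18 for Stx3, 1.76 for Vamp8, 1.27 for Rab27b and 0.77 for Rab3d. For Rab26 it was -16.95, -16.69 and -16.63 in Ela1-Myc, against -16.92, -17.05 and -16.94 in WT, and the groups overlapped, with a difference of 0.21. The exact two-sided permutation p was 0.1 for the 7 genes, the smallest possible, and 0.3 for Rab26 (adjusted p = 0.114 and 0.3 over the 8 ratios). The same ratio was higher in all Ela1-Myc libraries for 94.4% of the 6995 genes and lower for 0.186%, so the machinery shared this direction with most genes.

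Promoter windows were looked at for motifs that the relevant transcription factors are known to bind. MYC with its partner MAX binds the E-box CACGTG, and MIST1, the product of Bhlha15, which has been reported to act on Rab3d and Rab26 in mouse secretory cells, binds E-boxes of the form CANNTG, among them CATATG. All 3 patterns read the same on both strands, and each CACGTG or CATATG is also a CANNTG. RefSeq windows of build GRCm38.p6, from 250 bases before to 50 bases after an annotated start, were given for 6 of the 9 genes, Rab3d, Vamp8, Stx3, Stxbp2, Snap23 and Syt1. The windows of the 2 genes with the largest deposited-scale rises and of the Rab gene with a window that fell after scaling are shown, 5′ to 3′ on the strand of the gene, with every CANNTG in capitals.
Stxbp2, chr8:3630859-3631158, plus strand: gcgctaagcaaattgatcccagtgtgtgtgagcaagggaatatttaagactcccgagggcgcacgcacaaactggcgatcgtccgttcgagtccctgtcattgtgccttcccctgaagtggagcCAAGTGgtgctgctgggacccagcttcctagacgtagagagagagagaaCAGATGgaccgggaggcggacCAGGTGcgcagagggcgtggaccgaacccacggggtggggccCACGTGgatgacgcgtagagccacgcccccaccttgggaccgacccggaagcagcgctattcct
Snap23, chr2:120567421-120567720, plus strand: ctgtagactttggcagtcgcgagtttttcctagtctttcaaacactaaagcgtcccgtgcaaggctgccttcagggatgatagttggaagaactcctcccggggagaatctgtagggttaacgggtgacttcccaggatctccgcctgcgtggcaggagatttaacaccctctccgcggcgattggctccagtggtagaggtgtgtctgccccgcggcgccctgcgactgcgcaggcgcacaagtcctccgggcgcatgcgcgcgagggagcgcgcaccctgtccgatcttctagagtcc
Rab3d, chr9:21918134-21918433, minus strand: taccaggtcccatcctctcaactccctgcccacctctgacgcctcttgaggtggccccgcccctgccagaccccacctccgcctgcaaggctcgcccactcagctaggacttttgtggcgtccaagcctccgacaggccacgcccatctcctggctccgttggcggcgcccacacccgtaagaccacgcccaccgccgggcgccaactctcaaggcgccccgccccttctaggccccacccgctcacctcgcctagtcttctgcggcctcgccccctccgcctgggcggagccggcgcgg

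The Stxbp2 window held 4 CANNTG boxes, the last of them CACGTG, starting 14 bases before the annotated start. It was the only window of the 7 used for these genes (Syt1 has 2) with CACGTG, which 7.15% of the 32851 windows of all genes hold. No CANNTG lay in the windows of Snap23, Rab3d or Vamp8 or in 1 of the 2 windows of Syt1, while Stx3 had 1 box and the other Syt1 window 3; 72.3% of all windows hold at least 1. CATATG, held by 3.91% of all windows, was in none of the 7. A match or its absence in these 300 bases describes the letters only.

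Of a wider list of 109 genes of granule trafficking and fusion, 107 were in the files and 62 were tested. On the deposited scale 40 were called higher and 0 lower, with a median log2 change of 1.02 (limma; 1 lower at an unadjusted p under 0.05), and on the median-of-ratios scale 2 were higher, 7 lower and 53 not called, with a median of 0.04. These shares stand beside the 70.2% higher of all tested genes as deposited and the 17.1% higher and 7.1% lower after scaling. The 7 lower genes after scaling were Rab3a, Rab4a, Sytl1, Syt3, Stxbp6, Tpd52l1 and Myo5c.

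Among the relatives of the granule Rabs, Rab3a, better known from neurons, stood at 4.46, 3.01 and 3.80 in Ela1-Myc, against 2.99, 5.24 and 3.60 in WT. Its log2 change was -0.04 as deposited (limma adjusted p = 0.919) and it fell by 1.23 after scaling (limma adjusted p = 0.0101). Sytl1, a synaptotagmin-like protein that binds Rab27, stood at 8.30, 2.72 and 4.53 in Ela1-Myc, against 2.80, 8.20 and 5.87 in WT. Its log2 change was -0.11 as deposited (limma adjusted p = 0.834), and it fell by 1.34 after scaling (limma adjusted p = 0.0356). Myo5c, a motor of secretory granules in exocrine cells, had -0.05 as deposited (limma adjusted p = 0.915) and fell by 1.17 after scaling (limma adjusted p = 0.0144). Rab27a, the close relative of Rab27b, showed a log2 change of 0.26 as deposited and -0.72 after scaling, neither of them called (limma adjusted p = 0.501 and 0.0633). In contrast, Rab8a, which serves transport to the plasma membrane in many cell types, rose by 1.81 as deposited (limma adjusted p = 0.0093) and had 0.53 after scaling (limma adjusted p = 0.372).

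Among SNARE genes, Stx4a, the syntaxin of basolateral membranes, stood at 5.81, 7.64 and 8.72 in Ela1-Myc, against 0.897 in WT replicate 2, and was listed at 0 in WT replicates 1 and 3. It was called higher on both scales (limma adjusted p = 2.72e-05 and 0.00599), with the listed zeros taken as measured values. Syngr1, a vesicle membrane protein, had the same pattern, at 8.61, 4.27 and 5.67 in Ela1-Myc, against 0.290 in WT replicate 2 and listed zeros in WT replicates 1 and 3. Stx2, Snap29 and Vamp3 rose by 0.87, 0.82 and 1.39 log2 units as deposited (limma adjusted p = 0.00902, 0.0385 and 0.0152), with overlapping groups for Snap29. After scaling they had changes of -0.02, -0.01 and 0.19 (limma adjusted p = 0.957, 0.974 and 0.739 on that scale). Vamp7 was listed at 0 in all Ela1-Myc libraries and at 0.00464, 0.00823 and 0.00174 in WT, values that 4257 symbols share in these libraries. Vamp4, Snap25, Syt7, Cplx2 and Unc13d did not reach a mean level of 1. The neuronal SNAP gene Snap25 was no higher than 0.248 in any library, against at least 0.851 for Snap23.

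Nsf, the ATPase that takes SNARE complexes apart, and Dnajc5, a vesicle chaperone, rose by 1.34 and 1.25 log2 units as deposited and had changes of 0.24 and 0.04 after scaling (limma adjusted p = 0.501 and 0.936 on that scale). Napa, the cofactor of Nsf, Rab11a, a Rab of recycling membranes, and Tpd52, a protein of acinar secretion, were not called on either scale, with changes of 0.85, 0.97 and 0.68 as deposited and -0.59, -0.29 and -0.77 after scaling.

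Profiles over the 6 libraries were compared by the root mean square difference of centred log2(value + 1) levels as deposited, among the tested genes above 0 in all 6 libraries. The closest gene to Rab3d was Rbpjl, the acinar subunit of the PTF1 transcription complex, at 0.0408 log2 units among 6994 candidates. Rbpjl stood at 43.6, 24.6 and 30.2 in Ela1-Myc, against 23.6, 62.2 and 30.3 in WT. The closest genes were 4930415O20Rik for Rab26 (0.0581), Slc16a7 for Rab27b (0.0591), Creg1 for Vamp8 (0.0576), Rnf19b for Vamp2 (0.0638), Bcl7a for Stx3 (0.0297), Mpp6 for Stxbp2 (0.0793) and Htra3 for Snap23 (0.0342). No gene of the family was the closest to another. As nearly all candidates lie outside the family, this says little about it. How small the smallest distance among so many candidates would be by chance was not computed.

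Among regulators, Myc stood at 52.0, 34.4 and 34.2 in Ela1-Myc, against 4.10 in WT replicate 2 and listed zeros in WT replicates 1 and 3; transgene and native transcripts are not separated. Bhlha15, which encodes MIST1 and organises the secretory apparatus, stood at 29.2, 19.2 and 25.3 in Ela1-Myc, against 14.3, 52.2 and 29.5 in WT. It had a log2 change of -0.21 as deposited (limma adjusted p = 0.782) and fell by 1.68 ± 0.358 after scaling (SE; limma adjusted p = 0.0191), beside 1.61 for Rab3d and 1.92 for Rab26. Rbpjl had -0.15 as deposited (limma adjusted p = 0.844) and fell by 1.64 after scaling (limma adjusted p = 0.0242). Falls of this size were thus not confined to Bhlha15, Rab3d and Rab26, and any link among these genes was not tested. Ptf1a, the DNA-binding subunit of PTF1, had 0.15 as deposited and -1.29 after scaling, neither of them called (limma adjusted p = 0.835 and 0.084).

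Several of these genes also serve other cells of the pancreas. Of the summed markers of those cells, all but the islet sum were higher in every Ela1-Myc library as deposited. The same held for 75.3% of all tested genes. After scaling only the stromal and vessel sum remained apart. The 5 acinar transcription factors listed as markers were above 0 in every library. As deposited they summed to between 64.4 and 129.1 in Ela1-Myc and to between 50.35 and 153.4 in WT. After scaling the sums no longer overlapped, at 39.1 to 78.45 in Ela1-Myc and 121.3 to 172 in WT. On that scale 2 of the 5 were called lower and 0 higher (limma), beside 7.1% and 17.1% of all tested genes. As deposited 1 of the 5 was called higher and 0 lower (limma), beside 70.2% and 0.239% of all tested genes. Leukocytes use Vamp8, Snap23, Stxbp2 and Unc13d for granule release. The 11 leukocyte markers in the files summed to between 296.8 and 1124 in Ela1-Myc and to between 0.129 and 76.4 in WT; each of the 11 was listed at 0 in at least 1 WT library, among them Ptprc, and Cd68 in all 3. After scaling the leukocyte sums ran from 180.4 to 714.9 in Ela1-Myc and from 0.212 to 184.1 in WT, and the groups overlapped. On that scale 4 of the 11 were called higher and 0 lower (limma), beside 17.1% and 7.1% of all tested genes. As deposited 11 of the 11 were called higher (limma), beside 70.2% of all tested genes. Islet cells use Vamp2 and synaptotagmins. The 15 islet markers summed to between 2452 and 3377 in Ela1-Myc and to between 0.279 and 2489 in WT. In WT replicate 1, 12 of the 15 were listed at 0, insulin Ins2 and glucagon Gcg included. Only Gcg and Ppy were listed at 0 in WT replicate 3, and none in WT replicate 2. Ins2 was at 1971.64 in WT replicate 2, against 1949.5, 2152.35 and 2381.1 in Ela1-Myc. The 8 nerve and Schwann cell markers summed to at most 3.59 in Ela1-Myc and 1.28 in WT, and none reached a mean of 1. The 6 duct markers summed to between 130.6 and 278.0 in Ela1-Myc and to between 4.44 and 76.2 in WT. After scaling these sums overlapped, at 79.4 to 164.4 in Ela1-Myc and 10.7 to 85.35 in WT. The 5 stromal and vessel markers in the files summed to between 216.2 and 282.6 in Ela1-Myc and to between 10.1 and 42.4 in WT. After scaling they did not overlap, at 131.4 to 161.5 in Ela1-Myc and 16.6 to 102.1 in WT. Mast cell and platelet markers, of 4 genes each, summed to at most 5.61 and 20.0 in Ela1-Myc and 2.79 and 5.02 in WT. After scaling both sums overlapped between the groups, as did those of the islet and of the nerve and Schwann cell markers. The part of these cells in the levels above was not tested.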

How the data were processed

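RNA of 6 pancreas libraries was measured as 1 adjusted FPKM value per gene, deposited by the authors on 23422 rows and headed so per the file headers. The build is GRCm38, and TopHat2 2.0.4, Cufflinks 2.0.2, Bowtie, affy, FastQC 0.9.4 and CASAVA 1.8 were used, per the submitters' processing notes. Neither these nor the labels say how FPKM was adjusted, and depth is unknown, so no counting interval is given. Total RNA was spiked with ERCC RNA and a strand-keeping poly(A) kit was used, per the labels' protocols. Values were divided by 100000, and a symbol on several rows (23099 symbols in all) was represented by its highest-mean row. limma 3.58.1 (R 4.3.3, intensity trend) compared the groups, with no covariate, for genes averaging 1 or more, using log2(value + 1), two-sided tests and a threshold of 0.05 on Benjamini-Hochberg adjusted p, on the deposited scale and after median-of-ratios scaling. The pseudocount understates changes of low genes. The fit was tested on simulated data. Ratios within a library were compared by exact two-sided permutation. Locus starts in the files count from 0 and are given from 1; strands and overlapping genes come from GENCODE M21, and figures from matplotlib 3.10.9 in Python 3.11.15. Replicate numbers follow accession order and pair nothing.

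All 9 genes are named whatever their result. From the wider list at most 6 genes called after scaling were to be described by size of change, plus a fixed set of relatives; Rab4a, Stxbp6 and Tpd52l1 were named beyond that rule, after their values were seen. The genes and lists were chosen with earlier results of these data known. Alternatives were other scales, pseudocounts and filters, and leaving out each library.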

Additional observations from a re-analysis of the deposited data

How the results depend on the processing

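The directions of Vamp2, Vamp8 and Stx3 differed between the deposited scale and the 3 others run. On the deposited scale 4 of the 7 tested genes were higher and 0 lower; with median-of-ratios scaling, quantile normalization, or the enzyme list left out and equal totals, 0 were higher and 2 lower (Rab3d and Rab26) in each case, beside 17.1%, 10.7% and 16.4% of all tested genes higher and 7.1%, 15.6% and 5.96% lower. With a pseudocount of 0.1, a pseudocount of 1 added before the division by 100000, or no filter, 2 were higher (Stxbp2 and Snap23), beside 64.7%, 38.3% and 36.7% of all genes tested there. Without single libraries between 1 and 5 were higher and 0 lower, beside 49.5% to 81.1% of tested genes higher. On the median-of-ratios scale between 1 and 3 genes were lower without single libraries, Rab26 each time and Rab27b as the third without WT replicate 1, beside 1.76% to 6.51% of tested genes lower.

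Under the 3 other scales, in the order above, the log2 change was -0.18, -0.48 and -0.14 for Vamp2, -0.70, -0.81 and -0.66 for Vamp8, and -0.18, -0.58 and -0.15 for Stx3, against positive values as deposited; for Snap23 it was 0.20, -0.11 and 0.26, and for Stxbp2 it was positive throughout, at 0.32, 0.08 and 0.39. Rab3d on the deposited scale ran from -0.45 to 0.25 without single libraries. Why the scales differ was not tested. On the median-of-ratios scale no change turned its sign under the alternatives run. The log2 ratios to the geometric mean moved by over 1 SD for Rab26 (-1.21) and Snap23 (0.68) with log2(value + 1), and for none of the 8 genes without single libraries. No paired analysis was possible because the labels give no shared replicate numbers. Without read counts, the counting error of low genes such as Rab27b and Syt1 is unknown.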
